A study of Mus musculus with 54 samples.

Results

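The comparison set the RNA response of mouse cXEN cells to the ligand BMP4 beside their response to loss of the transcription factor Sox17, both read after 72 h, to show which genes the responses share, which move in opposite directions and which of them mark visceral endoderm. Members were chosen by title: the libraries of 72 h with BMP4 and of its 0 h control, and the libraries of 72 h of Sox17 degradation and of its 0 h control, 2 libraries in each of 4 groups. They are 8 of the 54 samples of the series, whose other samples are 32 RNA libraries, which entered the shared fit, and 14 chromatin samples, which were not analysed here. The labels describe cXEN cells as extraembryonic endoderm stem cells, and each tagged line is compared with its own 0 h control. Cells of the BMP4 group spent 72 h in N2B27, a defined medium, without serum and with 25 ng/ml BMP4. Their 0 h control had been adapted for 24 h to N2B27 with 1% FBS on gelatin and received no BMP4. The genotype label of both is cXEN;Gata6-FKBP, while their titles name XEN cells. Cells of the Sox17 group (genotype cXEN;Sox17-FKBP) were kept for 72 h with 500 nM dTAGV1, a small molecule that sends FKBP-tagged protein to degradation, and their 0 h control received DMSO, in a medium with 15% FBS.

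Visceral endoderm is the polarised epithelium that surrounds the early embryo, takes up nutrients through endocytic receptors and secretes lipid and vitamin carriers such as the apolipoproteins, transthyretin and retinol-binding protein. Parietal endoderm, its sister tissue, is made of migratory, mesenchyme-like cells that lay down a thick basement membrane. XEN cells in culture carry features of both. BMP4 acts through serine/threonine kinase receptors and the factors SMAD1 and SMAD5, whose immediate targets include the Id genes, and it is known to turn XEN cells toward visceral endoderm. Sox17 is an HMG-box factor of primitive endoderm.

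The responses share no library, and they differ in line, medium and serum as well as in treatment, which cannot be told apart. The BMP4 control is a 0 h sample with 1% serum, so BMP4, 72 h of culture and serum removal cannot be told apart either. The Sox17-loss control is also a 0 h sample, and the series holds no 72 h DMSO group and no untagged line with dTAGV1. Loss of Sox17, 72 h of culture and the compound itself therefore cannot be told apart. These counts measure neither BMP4 signalling nor Sox17 protein. Gene reads per library ran at 16.8 to 41.6 M. The labels do not say whether both libraries of a group were grown apart, so the tests weigh changes against a spread that may be technical, and a rank comparison of 2 against 2 could not go below an exact two-sided permutation p of 0.333. In bulk RNA, fewer cells of a type and less RNA per cell cannot be told apart. Levels are reads per M gene reads after TMM scaling (CPM), given for replicate 1 and replicate 2 in turn. They are not divided by gene length, so they are compared only within a gene, and averages are means ± SD of 2 libraries. Changes are log2 ratios ± SE, and the difference of changes is the BMP4 change minus the Sox17-loss change. A gene counts as changed, or its difference as called, at an adjusted p under 0.05 by edgeR's quasi-likelihood test over 14625 tested genes.

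The factors of primitive endoderm come first. Sox17 (ENSMUSG00000025902; mm10 chromosome 1, 4490928 to 4497426) had 260.1 and 263 CPM with BMP4 at 72 h, against 426 and 431 CPM in N2B27 at 0 h. Sox17 loss gave 205 and 219.7 CPM, against 256 and 274 CPM at 0 h. Both treatments therefore stood below their controls without overlap, at a log2 change of −0.71 ± 0.07 with BMP4 (adjusted p = 5.6e-09) and −0.32 ± 0.07 with Sox17 loss (adjusted p = 0.0011). The tag acts on the protein, so the RNA does not report its loss. Gata6 (ENSMUSG00000005836; mm10 chromosome 18, 11052510 to 11085636), a zinc-finger factor of primitive endoderm, had 186 and 187 CPM with BMP4 at 72 h, against 305 and 306 CPM in N2B27 at 0 h. Sox17 loss gave 429.8 and 455 CPM, against 336 and 344 CPM at 0 h. Gata6 fell with BMP4 (−0.71 ± 0.06) and rose with Sox17 loss (0.38 ± 0.06), and the difference of changes was −1.09 ± 0.09 (adjusted p = 9.3e-11). Gata4 (ENSMUSG00000021944; mm10 chromosome 14, 63198914 to 63271712), its relative, averaged 805 ± 10.5 CPM with BMP4 and 958 ± 7.89 CPM at 0 h, a fall of 0.25 ± 0.07 on the log2 scale. Its average was 700.5 ± 6.44 CPM with Sox17 loss and 734 ± 4.69 CPM at 0 h, which did not pass (−0.07 ± 0.07, adjusted p = 0.48), though it did on only the 8 libraries (−0.11, adjusted p = 0.00016) and at 96 h (−0.25, adjusted p = 0.0042). Foxa2 (ENSMUSG00000037025; mm10 chromosome 2, 148042877 to 148046969), a forkhead factor of endoderm, averaged 124 ± 0.228 CPM with BMP4 and 141 ± 1.24 CPM at 0 h (−0.18 ± 0.07, adjusted p = 0.026). It averaged 129.5 ± 2.32 CPM with Sox17 loss and 120.2 ± 1.62 CPM at 0 h (0.11 ± 0.07, adjusted p = 0.24). With reads outside genes as a covariate, which is described with the libraries, the BMP4 calls of Gata4 and Foxa2 were lost. Foxa2 also lost it without any 1 of the 4 libraries of the BMP4 comparison (adjusted p = 0.072 to 0.095). With the trend over gene span removed, also described with the libraries, Foxa2 was called higher with BMP4 (0.17, adjusted p = 0.0054).

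More genes were called with BMP4 than with Sox17 loss, and at larger changes. The covariate described with the libraries turns this order of counts round, but it could alter the Sox17-loss changes only little. With BMP4, 9185 genes (62.8%) were called, of which 4623 rose (31.6%) and 4562 fell (31.2%); 2356 of the rises and 1062 of the falls reached 1 log2 unit. With Sox17 loss, 5286 genes (36.1%) were called, of which 3097 rose (21.2%) and 2189 fell (15%); 969 of the rises and 205 of the falls reached 1 log2 unit. The median absolute change of called genes was 0.81 with BMP4 and 0.54 with Sox17 loss. Of the 3683 genes changed in both, 2372 (64.4%) moved the same way and 1311 in opposite directions. Among the 497 that changed by at least 1 log2 unit in both, 389 (78.3%) moved the same way.

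4 overlap classes follow from these calls. Up in both were 1173 genes (8.02% of tested genes), 25.4% of the BMP4 rises and 37.9% of the Sox17-loss rises. Down in both were 1199 genes (8.2%), 26.3% of the BMP4 falls and 54.8% of the Sox17-loss falls. Genes that rose with BMP4 and fell with Sox17 loss numbered 483 (3.3%), or 10.4% of the BMP4 rises and 22.1% of the Sox17-loss falls. The reverse pattern, down with BMP4 and up with Sox17 loss, was found for 828 genes (5.66%), or 18.1% of the BMP4 falls and 26.7% of the Sox17-loss rises. The count of 483 became 287 to 314 without any 1 Sox17-FKBP library. It was 94 with the covariate, against 292 of the reverse pattern, and 1476 on only the 8 libraries, against 1258, where the order of these classes turned. Over the 10129 genes whose mean reached 5 CPM in 1 of the 4 groups, the log2 changes correlated at r = 0.208 (rho = 0.149), a description across genes, which are not independent. The difference of changes itself was called for 7762 genes (53.1%), 3418 positive (23.4%) and 4344 negative (29.7%). Within the genes up in both, it was positive for 297, negative for 138 and not called for 738. Changes read in 1 treatment alone did not always differ: of the genes called with BMP4 only, the difference was called for 4253 and not for 1249, and of those called with Sox17 loss only, for 990 and not for 613.

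**Figure D1:**
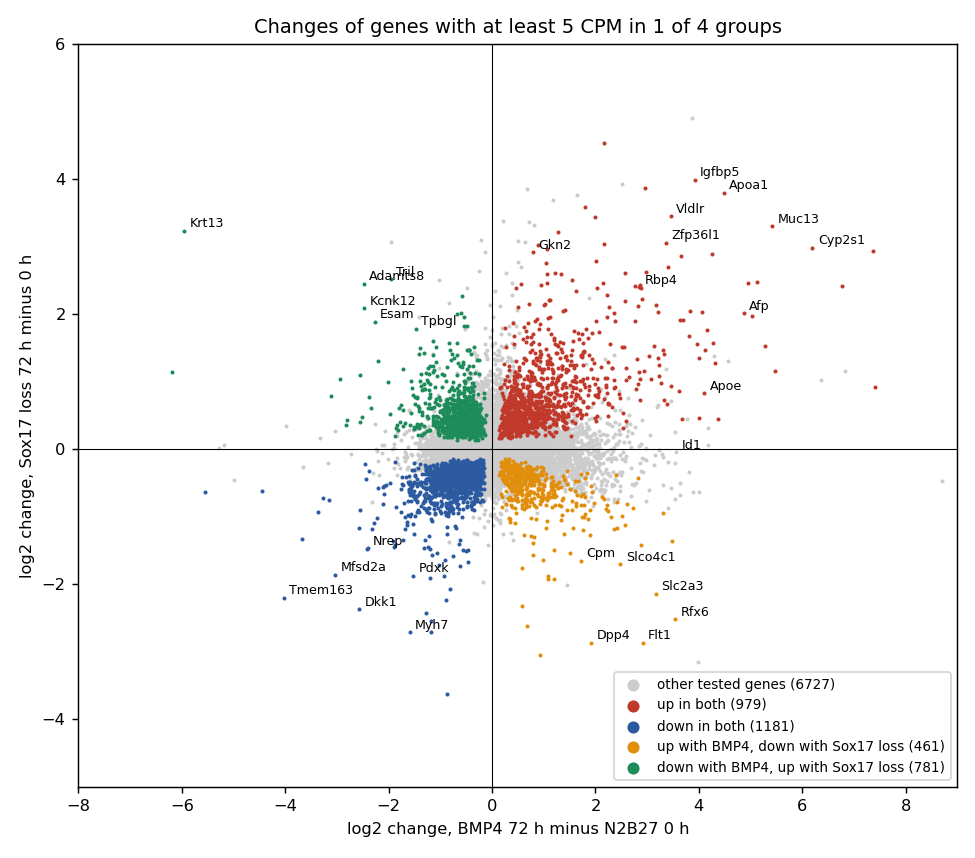
Log2 change with Sox17 loss (vertical) against log2 change with BMP4 (horizontal) for the 10129 genes with at least 5 CPM in 1 of the 4 groups, 1 point per gene, coloured by overlap class (979 up in both, 1181 down in both, 461 up with BMP4 and down with Sox17 loss, 781 the reverse, 6727 others). Named points are genes described in the text, at fitted changes also where a group had no read, and 1 gene, Apob, lies outside the axes.

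A property of the BMP4 libraries moved with these counts. Reads outside annotated genes numbered 10.4 and 10.3 per 100 gene reads with BMP4 at 72 h, against 5.64 and 5.69 in N2B27 at 0 h, and 5.79 and 5.78 after 72 h of Sox17 loss, against 6.01 and 5.92 at 0 h. Mitochondrially encoded transcripts took 1.69 and 1.65% of gene reads with BMP4, against 0.79 and 0.78% at 0 h, and 0.98 and 0.95% with Sox17 loss, against 1.08 and 1.10% at 0 h. The BMP4 change also followed the genomic span of genes. Over 9932 genes with a span, the median log2 change with BMP4 was −0.50 in the shortest of 4 equal bins (median 5.59 kb), −0.19 and 0.11 in the middle bins and 0.39 in the longest (95.6 kb), and with Sox17 loss it lay between −0.004 and 0.05 in all 4. With the log2 of reads outside genes as a covariate, 1226 genes rose and 1396 fell with BMP4, against 3570 and 2747 with Sox17 loss. In that fit 22.0% of the 9185 BMP4 calls, 99.7% of the 5286 Sox17-loss calls and 20.2% of the 7762 difference calls were kept in the same direction. Since that measure stood apart in both BMP4 libraries, it and the treatment cannot be told apart. The fit took the covariate's slope only from differences between the 2 libraries of a group, and carried it over the wider gap of the BMP4 comparison. The Sox17-FKBP groups hardly differed in the measure, so the covariate could alter their changes only little. The kept shares therefore do not compare the firmness of the responses, and calls given as lost with the covariate carry the same limit.

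**Figure D2:**
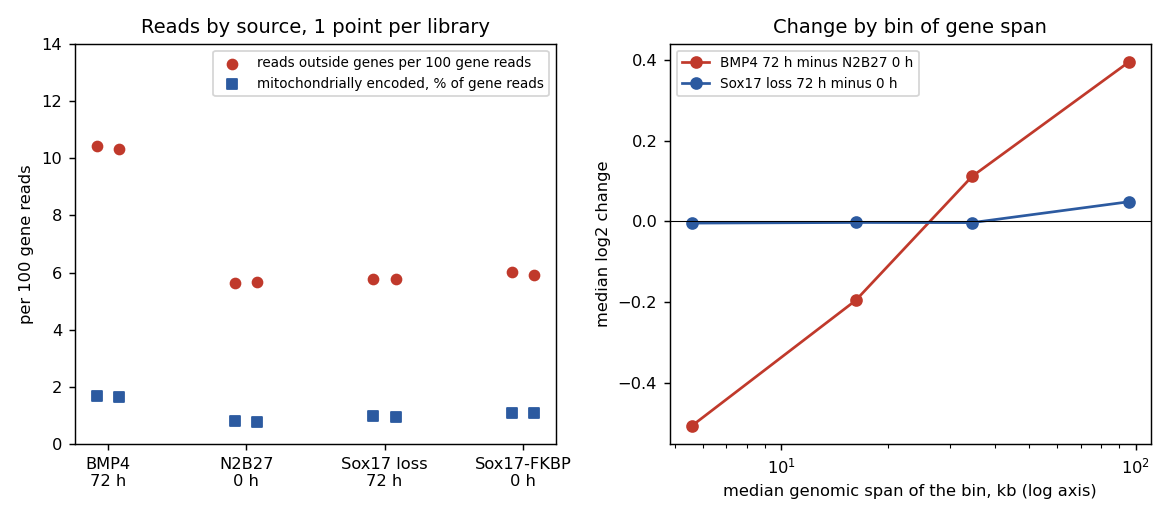
Left, reads outside annotated genes and mitochondrially encoded reads per 100 gene reads, 1 point per library. Right, median log2 change in 4 equal bins of genomic gene span (log axis), from −0.50 in the shortest to 0.39 in the longest bin with BMP4, and near 0 in every bin with Sox17 loss.

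In both responses more visceral endoderm genes rose than fell. Of 30 listed genes, 25 were tested. With BMP4 15 rose and 6 fell, where 31.6% and 31.2% of all tested genes did. With Sox17 loss 13 rose and 5 fell, where 21.2% and 15% of all tested genes did. The median log2 change of the 25 was 1.06 with BMP4 and 0.66 with Sox17 loss, against 0 and 0.04 over all tested genes. The 11 that rose in both were Afp, Apoa1, Apoa4, Apoe, Rbp4, Ttr, Hnf4a, Ctsh, Mttp, Slc39a4 and Fgb. The 5 untested genes, Alb, Trf, Fga, Fgg and Apoc2, stayed under 0.47 CPM in all 8 libraries, so serum albumin, fibrinogen alpha and gamma and transferrin were not tested. With the covariate the counts were 13 up and 2 down with BMP4 and 14 up and 5 down with Sox17 loss.

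Several secreted carriers were among the shared rises of the visceral endoderm list. Afp, the fetal serum carrier alpha-fetoprotein, had 56.6 and 52.1 CPM with BMP4 at 72 h, against 1.92 and 1.79 CPM in N2B27 at 0 h. Sox17 loss gave 14.8 and 17.7 CPM, against 4.21 and 3.85 CPM at 0 h. Both treated groups lay above their controls without overlap, and the BMP4 change (4.87 ± 0.16) exceeded that of Sox17 loss (2.01 ± 0.13) by 2.86 ± 0.21 (adjusted p = 2.6e-11). Rbp4, which carries retinol, had 318 and 305 CPM with BMP4 at 72 h, against 42.9 and 43.7 CPM in N2B27 at 0 h. Sox17 loss gave 34.9 and 35.98 CPM, against 7.08 and 6.43 CPM at 0 h. Its starting level in the Sox17-FKBP line was far below that of the BMP4 series, and its changes were 2.85 ± 0.09 and 2.40 ± 0.10, with a difference of 0.45 ± 0.13 (adjusted p = 0.0054). Apoe, an apolipoprotein of lipid transport, had 553 and 527 CPM with BMP4 at 72 h, against 32.00 and 30.7 CPM in N2B27 at 0 h. Sox17 loss gave 31.3 and 31.1 CPM, against 16.3 and 18.8 CPM at 0 h. Its change was 4.11 ± 0.12 with BMP4 and 0.83 ± 0.11 with Sox17 loss, a difference of 3.28 ± 0.16 (adjusted p = 6.1e-15). Ttr, the thyroxine carrier, had 139 and 144 CPM with BMP4 at 72 h, against 52.98 and 51.6 CPM in N2B27 at 0 h. Sox17 loss gave 75.2 and 69.8 CPM, against 31.4 and 34.01 CPM at 0 h. For Ttr the changes, 1.44 ± 0.11 and 1.15 ± 0.11, were not called different (0.29 ± 0.15, 95% interval −0.01 to 0.59, adjusted p = 0.12), though they were in the fit on only the 8 libraries (adjusted p = 4e-05).

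Other members of the list also rose in both. Hnf4a, a nuclear receptor that drives visceral endoderm genes, had 90.8 and 91.9 CPM with BMP4 at 72 h, against 32.8 and 31.7 CPM in N2B27 at 0 h. Sox17 loss gave 22.8 and 24.5 CPM, against 14.7 and 15.3 CPM at 0 h. It rose in both without overlap, by 1.501 ± 0.11 and 0.66 ± 0.11, which differed by 0.84 ± 0.15 (adjusted p = 4.4e-05). Mttp, which loads lipid onto apolipoprotein B, rose by 0.76 ± 0.06 and 0.34 ± 0.06, and the cathepsin gene Ctsh by 1.35 ± 0.09 and 0.55 ± 0.09, each more with BMP4 (difference 0.41 ± 0.08 and 0.80 ± 0.12). Slc39a4, a zinc importer of visceral endoderm and gut, rose by 0.45 ± 0.12 and 0.67 ± 0.12, and that difference was not called (−0.23 ± 0.17, adjusted p = 0.29), though with the covariate it was positive and called (0.73, adjusted p = 0.027). Apoa4 averaged 16.4 ± 0.0858 CPM with BMP4 and 0.877 ± 0.371 CPM at 0 h. Sox17 loss gave 3.11 ± 0.182 CPM, against 0.436 ± 0.177 CPM at 0 h, rises of 4.24 ± 0.31 and 2.89 ± 0.34 that differed by 1.36 ± 0.52 (adjusted p = 0.03). Fgb, a fibrinogen chain, averaged 7.19 ± 1.54 CPM with BMP4 and 3.43 ± 0.361 CPM at 0 h and, at under 1 CPM, 0.486 ± 0.133 CPM with Sox17 loss and 0.0590 ± 0.0158 CPM at 0 h. Its call was lost in each response without either of 2 libraries (adjusted p = 0.058 and 0.095 with BMP4, 0.069 and 0.093 with Sox17 loss), and with BMP4 also with the covariate (0.16). The difference of Apoa4 was lost with the covariate (adjusted p = 0.2) and without any of 4 libraries (0.051 to 0.24).

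**Figure D3:**
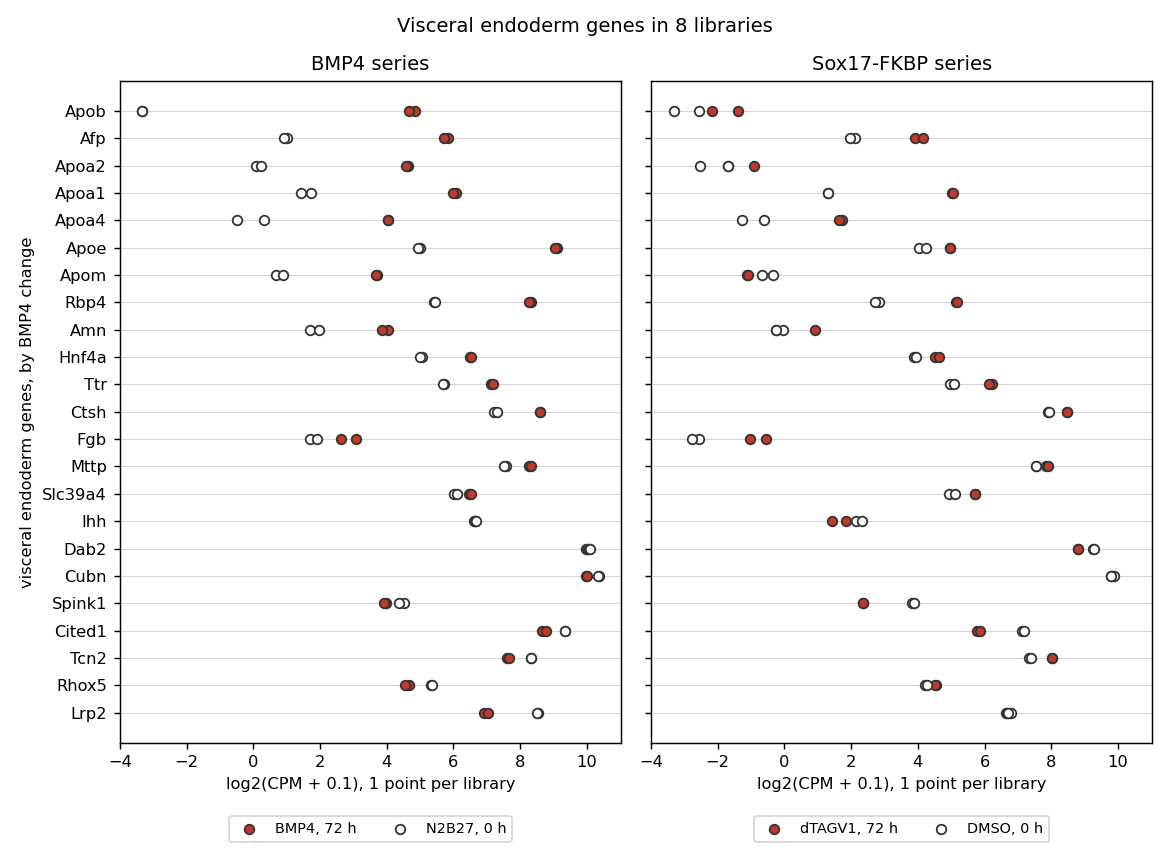
Visceral endoderm genes described in the text, in the BMP4 series (left panel) and the Sox17-FKBP series (right panel) on a log2(CPM + 0.1) scale, 1 point per library, filled for 72 h of treatment and open for 0 h, ordered by the BMP4 change and without Foxa1. In the upper rows filled points lie right of open points in both panels, apart from Apom, Apoa2 and Amn in the Sox17-FKBP series. In that series both filled points of Cubn and Lrp2, and 1 each of Apoa2 and Amn, are covered by open ones.

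Some visceral endoderm genes were called with BMP4 and not with Sox17 loss. Apob, the structural protein of lipoprotein particles, had 28.95 and 25.4 CPM with BMP4 at 72 h, against 0 and 0 CPM in N2B27 at 0 h, where no read was found. Both BMP4 libraries stood clear of that, and against a floor of 3 reads over both control libraries their level with BMP4 was at least 328-fold higher. With Sox17 loss Apob had 11 reads in all, against 2 at 0 h, and was not called (adjusted p = 0.062), though it was with DESeq2 (0.042), without a filter (0.015), on only the 8 libraries (0.015) and with the covariate (0.049). Apoa2 averaged 24.1 ± 0.793 CPM with BMP4 and 1.02 ± 0.0824 CPM at 0 h, a rise of 4.56 ± 0.27. Sox17 loss gave 0.317 ± 0.156 CPM, against 0.141 ± 0.0980 CPM at 0 h, which was not called (1.30 ± 0.59, adjusted p = 0.089). Apom averaged 12.8 ± 0.302 CPM with BMP4 and 1.62 ± 0.172 CPM at 0 h (2.98 ± 0.26). Sox17 loss gave 0.365 ± 0.0118 CPM, against 0.609 ± 0.118 CPM at 0 h (−0.76 ± 0.43, adjusted p = 0.18). Amn, the membrane partner of cubilin, averaged 15.2 ± 1.37 CPM with BMP4 and 3.48 ± 0.434 CPM at 0 h (2.12 ± 0.23). Sox17 loss gave 1.26 ± 0.732 CPM, against 0.809 ± 0.0958 CPM at 0 h (0.70 ± 0.36, adjusted p = 0.15). The difference of changes was called for Apom (3.74 ± 0.50, adjusted p = 7.4e-07), Apoa2 (adjusted p = 0.00081), Amn (0.0079) and Apob (0.0093). Without replicate 1 of the Sox17-FKBP 0 h group, Apoa2 (adjusted p = 0.041) and Apob (0.033) passed with Sox17 loss and their differences did not (0.08 and 1), and without replicate 2 of 72 h the same held for Amn (0.02, difference 0.066). With the covariate Apob lost its BMP4 change and difference (adjusted p = 0.063 and 0.23).

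Lrp2, Cubn and Dab2, which work together in endocytic uptake, did not rise with either treatment. Lrp2, the receptor megalin, had 121 and 130.3 CPM with BMP4 at 72 h, against 371 and 360.0 CPM in N2B27 at 0 h. Sox17 loss gave 101 and 99.4 CPM, against 110.0 and 103 CPM at 0 h. It fell with BMP4 (−1.54 ± 0.22, adjusted p = 7.3e-07), was not called with Sox17 loss (−0.09 ± 0.21, adjusted p = 0.8, or 0.0043 on only the 8 libraries), and the difference was −1.45 ± 0.30 (adjusted p = 0.00024). Cubn, its partner cubilin, averaged 1011 ± 5.88 CPM with BMP4 and 1296 ± 8.94 CPM at 0 h. Sox17 loss gave 892 ± 14.3 CPM, against 911 ± 38.6 CPM at 0 h. Cubn passed in neither (adjusted p = 0.093 and 0.93), though it was called lower with BMP4 with the covariate (0.0022) and in the fit on only the 8 libraries (7.5e-14, and 0.021 with Sox17 loss). Dab2, the adaptor of these receptors, averaged 1016 ± 23.2 CPM with BMP4 and 1085 ± 19.5 CPM at 0 h (−0.09 ± 0.06, adjusted p = 0.14, or 0.0093 on only the 8 libraries). It fell with Sox17 loss to 444 CPM, against 617 CPM at 0 h (−0.47 ± 0.06). With the gene span trend removed, Cubn (−0.75, adjusted p = 1.8e-05) and Dab2 (−0.50, 5.6e-08) were called lower with BMP4. Cited1, a transcriptional cofactor, fell in both (−0.63 ± 0.12 and −1.35 ± 0.13), as did the protease inhibitor gene Spink1 (−0.50 ± 0.16 and −1.51 ± 0.17). Their BMP4 falls were lost with the covariate, that of Spink1 also without replicate 1 of N2B27 at 0 h (0.074), and with the covariate Cited1 and Spink1 turned positive without passing (adjusted p = 0.22 and 0.71).

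The other members took courses of their own. The vitamin B12 carrier gene Tcn2 fell with BMP4 (−0.70 ± 0.08) and rose with Sox17 loss (0.66 ± 0.08), and the homeobox gene Rhox5 did likewise (−0.74 ± 0.10 and 0.29 ± 0.10). With the covariate neither BMP4 fall was called (adjusted p = 0.66 and 0.43), and the Rhox5 rise was lost without any 1 of the 4 Sox17-FKBP libraries (0.06 to 0.1). Ihh, a hedgehog ligand of visceral endoderm, averaged 99.2 ± 0.837 CPM with BMP4 and 101 ± 2.71 CPM at 0 h (−0.03 ± 0.11, adjusted p = 0.85). With the gene span trend removed, Ihh was called higher with BMP4 (0.24, adjusted p = 0.025). Ihh fell with Sox17 loss to 3.02 CPM, against 4.62 CPM at 0 h (−0.63 ± 0.16), a call lost without replicate 1 of 72 h (0.13) or replicate 2 of 0 h (0.06). Foxa1 stayed near or under 1 CPM in all 8 libraries and passed in no comparison (adjusted p = 0.24, 0.74 and 0.34).

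Genes listed for the anterior part of the visceral endoderm, which secretes WNT and Nodal antagonists, were read only in part. Of 16 listed genes 9 were tested, and 2 rose and 1 fell with BMP4, while 4 rose and 2 fell with Sox17 loss. All tested genes rose and fell at 31.6% and 31.2% with BMP4, and at 21.2% and 15% with Sox17 loss. In all 8 libraries 9 of the list stayed under 1 CPM, with Cer1, Gsc and Noto at 0, while Hhex and Dkk1 reached 17.5 and 17.4 CPM. Hhex and Dkk1 were the 2 that fell with Sox17 loss. None of the other tested genes exceeded 2.86 CPM, and the 4 that rose with Sox17 loss were among them. Hhex, a homeobox factor, had 15.1 and 17.5 CPM with BMP4 at 72 h, against 11.8 and 11.6 CPM in N2B27 at 0 h. Sox17 loss gave 6.41 and 7.92 CPM, against 11.4 and 12.7 CPM at 0 h. It rose with BMP4 (0.48 ± 0.16, adjusted p = 0.011) and fell with Sox17 loss (−0.76 ± 0.16, adjusted p = 0.00045), with a difference of 1.24 ± 0.23 (adjusted p = 5.9e-05), and the BMP4 call was lost without replicate 2 of either group (0.12 and 0.063). Eomes, a T-box factor, had 7 reads over both libraries after Sox17 loss and none at 0 h, at least 3.13-fold higher against the floor of 3 reads, a call lost without replicate 2 of 0 h (adjusted p = 0.051). Its level with BMP4 was 1.07 CPM, against 1.40 CPM at 0 h (adjusted p = 0.25).

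Ranked by the smaller of both changes, among genes whose groups did not overlap, those that rose most in both responses were Igfbp5, Apoa1, Vldlr, Muc13, Zfp36l1 and Cyp2s1. The leaders of every overlap class were picked with that condition, so their lack of overlap within a comparison is not further support. Promoter sequences of Igfbp5 and Apoa1 are printed because these genes head the shared rises. Each is the 250 bases before the start site, 5′ to 3′ on the gene's own strand, on GRCm38.p6 (mm10) from RefSeq, at chr1:72874866-72875115 (minus strand) for Igfbp5 and chr9:46228380-46228629 (plus strand) for Apoa1.
Igfbp5: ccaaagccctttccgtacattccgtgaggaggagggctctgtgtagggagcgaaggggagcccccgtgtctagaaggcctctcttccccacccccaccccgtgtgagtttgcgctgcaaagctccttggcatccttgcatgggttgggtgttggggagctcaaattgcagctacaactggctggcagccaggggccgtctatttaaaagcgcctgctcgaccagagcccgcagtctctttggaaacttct
Apoa1: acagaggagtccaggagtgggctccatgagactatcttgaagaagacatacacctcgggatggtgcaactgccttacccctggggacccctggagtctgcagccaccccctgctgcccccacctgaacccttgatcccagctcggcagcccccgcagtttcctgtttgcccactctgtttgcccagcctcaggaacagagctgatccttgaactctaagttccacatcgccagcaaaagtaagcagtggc
Capitals in these sequences would mark a match to 1 of 6 factor motifs, and neither holds one. Apoa1, the main protein of high-density lipoprotein, had 67.2 and 62.7 CPM with BMP4 at 72 h, against 3.24 and 2.61 CPM in N2B27 at 0 h. Sox17 loss gave 32.5 and 32.99 CPM, against 2.35 and 2.37 CPM at 0 h. It was low in both controls and higher in both treated groups, and the change was 4.48 ± 0.15 with BMP4 (adjusted p = 6.5e-19) and 3.79 ± 0.14 with Sox17 loss (adjusted p = 3.9e-17). The difference, 0.69 ± 0.21 (adjusted p = 0.0086), was lost without replicate 2 of N2B27 at 0 h (0.09). Igfbp5, a binding protein of insulin-like growth factors, had 2.74 and 3.24 CPM with BMP4 at 72 h, against 0.0599 and 0.307 CPM in N2B27 at 0 h. Sox17 loss gave 15.7 and 15.3 CPM, against 1.09 and 0.884 CPM at 0 h. Its level with BMP4 was below that after Sox17 loss, and its changes of 3.92 ± 0.36 and 3.99 ± 0.19 were not called different (adjusted p = 0.98), with 7 reads in the N2B27 control.

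The lipoprotein receptor gene Vldlr had 79.4 and 72.5 CPM with BMP4 at 72 h, against 7.43 and 6.45 CPM in N2B27 at 0 h. Sox17 loss gave 50.1 and 53.8 CPM, against 5.26 and 4.33 CPM at 0 h. All 4 treated libraries lay above all 4 controls, and the changes of 3.45 ± 0.17 and 3.45 ± 0.17 differed by 0.01 ± 0.26 (95% interval −0.51 to 0.52), a difference that was negative with the covariate (−0.97, adjusted p = 0.026). Zfp36l1, which destabilises AU-rich transcripts, averaged 27.2 ± 2.14 CPM with BMP4 and 2.69 ± 1.12 CPM at 0 h. Sox17 loss gave 19.2 ± 0.227 CPM, against 2.29 ± 0.212 CPM at 0 h (3.36 ± 0.15 and 3.05 ± 0.14, difference 0.31 ± 0.22). Muc13, a membrane mucin of gut epithelium, averaged 35.6 ± 1.08 CPM with BMP4 and 0.834 ± 0.0925 CPM at 0 h. Sox17 loss gave 7.26 ± 0.287 CPM, against 0.711 ± 0.212 CPM at 0 h. Muc13 rose more with BMP4 (5.41 ± 0.26 against 3.30 ± 0.25, adjusted p of the difference = 0.00015, or 0.39 with the covariate). Cyp2s1, a cytochrome P450, averaged 49.02 ± 1.72 CPM with BMP4 and 0.671 ± 0.153 CPM at 0 h. Sox17 loss gave 28.1 ± 1.24 CPM, against 3.57 ± 0.311 CPM at 0 h. Cyp2s1 also rose more with BMP4 (6.20 ± 0.30 against 2.98 ± 0.22, adjusted p of the difference = 6.2e-07).

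The shared falls were smaller. By the smaller of both changes Dkk1 and Tmem163 led them, and the class held 48 genes down by at least 1 log2 unit in both, against 341 up by as much in both. Their promoters, printed as those of the leading falls, lie at chr19:30549497-30549746 (Dkk1) and chr1:127678022-127678271 (Tmem163), both on the minus strand.
Dkk1: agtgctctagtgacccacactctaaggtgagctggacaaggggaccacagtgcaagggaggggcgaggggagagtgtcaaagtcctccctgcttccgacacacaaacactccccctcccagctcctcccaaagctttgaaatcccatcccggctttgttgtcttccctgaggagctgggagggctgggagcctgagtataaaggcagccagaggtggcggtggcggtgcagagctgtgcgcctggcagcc
Tmem163: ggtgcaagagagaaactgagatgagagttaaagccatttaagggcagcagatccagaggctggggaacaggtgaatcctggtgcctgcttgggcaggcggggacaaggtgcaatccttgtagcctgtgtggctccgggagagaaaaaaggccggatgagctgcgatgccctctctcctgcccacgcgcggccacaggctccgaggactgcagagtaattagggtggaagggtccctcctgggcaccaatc
Dkk1, a secreted WNT antagonist, had 1.42 and 1.78 CPM with BMP4 at 72 h, against 9.17 and 10.04 CPM in N2B27 at 0 h. Sox17 loss gave 3.06 and 3.19 CPM, against 14.8 and 17.4 CPM at 0 h. Both treated groups lay below both controls, and the changes of −2.58 ± 0.17 and −2.37 ± 0.13 were not called different (−0.20 ± 0.23, 95% interval −0.65 to 0.24, adjusted p = 0.51). Tmem163, a zinc transporter, had 0.203 and 0.798 CPM with BMP4 at 72 h, against 7.85 and 8.91 CPM in N2B27 at 0 h. Sox17 loss gave 1.10 and 0.787 CPM, against 3.96 and 4.78 CPM at 0 h. These are falls of 4.02 ± 0.28 and 2.20 ± 0.24 on the log2 scale. Mfsd2a, a lysolipid transporter, fell to 0.708 CPM with BMP4, against 5.90 CPM at 0 h, and to 2.96 CPM with Sox17 loss, against 10.7 CPM at 0 h. Myh7, a slow-muscle myosin heavy chain, averaged 21.3 ± 0.737 CPM with BMP4 and 64.1 ± 0.895 CPM at 0 h. Sox17 loss gave 6.17 ± 0.713 CPM, against 40.4 ± 0.0404 CPM at 0 h. The fall with Sox17 loss was the larger (difference 1.12 ± 0.17, adjusted p = 3.3e-06). Pdxk, which activates vitamin B6, fell by 1.52 ± 0.10 and 1.87 ± 0.10, and Nrep, a small neuronal protein gene, by 2.41 ± 0.14 and 1.47 ± 0.13 (difference −0.94 ± 0.19, adjusted p = 0.00021). The differences of Tmem163 (adjusted p = 0.00083), Mfsd2a (0.0073) and Pdxk (0.028) were lost with the covariate (0.059, 0.3 and 0.5), that of Mfsd2a also without replicate 1 of N2B27 at 0 h (0.06) and that of Pdxk without any of 4 libraries (0.1 to 0.14).

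Among genes that rose with BMP4 and fell with Sox17 loss, Flt1, Rfx6 and Slc2a3 led by the smaller of both changes. The promoters of Flt1 (chr5:147726012-147726261, minus strand) and of Rfx6 (chr10:51685268-51685517, plus strand) are printed for these opposite responses. In Rfx6, capitals mark the letters ATTAAC, which read as GTTAAT on the other strand and match the HNF1 motif, and CATTGT, which read as ACAATG and match the SOX motif.
Flt1: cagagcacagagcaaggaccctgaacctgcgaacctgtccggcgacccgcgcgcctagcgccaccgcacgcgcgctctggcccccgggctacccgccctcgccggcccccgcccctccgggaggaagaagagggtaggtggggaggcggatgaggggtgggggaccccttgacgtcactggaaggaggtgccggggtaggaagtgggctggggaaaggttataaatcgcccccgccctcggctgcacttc
Rfx6: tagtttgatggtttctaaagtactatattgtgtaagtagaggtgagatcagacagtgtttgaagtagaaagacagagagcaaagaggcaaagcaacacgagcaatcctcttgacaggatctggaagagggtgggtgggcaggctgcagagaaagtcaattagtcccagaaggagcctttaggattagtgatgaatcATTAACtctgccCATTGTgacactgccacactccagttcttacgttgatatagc
Flt1, a receptor of VEGF, had 125 and 129 CPM with BMP4 at 72 h, against 17.3 and 16.5 CPM in N2B27 at 0 h. Sox17 loss gave 2.28 and 1.70 CPM, against 15.1 and 14.3 CPM at 0 h. The 4 controls lay between 14.3 and 17.3 CPM, and the treated groups lay on opposite sides of them. The change was 2.91 ± 0.13 with BMP4 and −2.87 ± 0.16 with Sox17 loss, and the difference was 5.78 ± 0.21 (adjusted p = 9e-18). The glucose transporter gene Slc2a3 had 368 and 373 CPM with BMP4 at 72 h, against 41.5 and 41.1 CPM in N2B27 at 0 h. Sox17 loss gave 25.8 and 24.5 CPM, against 113 and 110.0 CPM at 0 h. These are a rise of 3.17 ± 0.09, a fall of 2.15 ± 0.09 and a difference of 5.31 ± 0.13 (adjusted p = 2.7e-21). Dpp4, a cell surface peptidase of epithelia, had 112 and 109 CPM with BMP4 at 72 h, against 29.1 and 29.4 CPM in N2B27 at 0 h. Sox17 loss gave 6.45 and 5.93 CPM, against 46.5 and 44.1 CPM at 0 h. Dpp4 parted like Flt1 (1.91 ± 0.18 and −2.87 ± 0.20, difference 4.78 ± 0.27, adjusted p = 6.5e-14).

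Rfx6, a winged-helix factor of gut and pancreas endoderm, had 21.9 and 22.02 CPM with BMP4 at 72 h, against 2.22 and 1.59 CPM in N2B27 at 0 h. Sox17 loss gave 0.143 and 0.0414 CPM, against 0.315 and 0.765 CPM at 0 h. It was low throughout that line, where the call rested on 5 reads after Sox17 loss and 41 at 0 h. That call was lost without replicate 2 of 0 h (adjusted p = 0.17) or of 72 h (0.059). The table's start sites of Rfx6 and Flt1 lie inside the spans given for these genes, not at their outer ends, and the windows at the outer ends were not analysed here. The matches in Rfx6 lie 54 to 49 bases (HNF1) and 42 to 37 bases (SOX) before the start site. Over the 10736 tested genes with a promoter in the RefSeq table, 6.10% held the SOX letters on either strand and 3.58% the HNF1 letters. In this class of 364 promoters the shares were 7.14 and 4.12%. Cpm, a carboxypeptidase of the cell surface, averaged 131 ± 1.78 CPM with BMP4 and 39.9 ± 2.72 CPM at 0 h. Sox17 loss gave 2.73 ± 0.481 CPM, against 8.55 ± 0.198 CPM at 0 h (1.71 ± 0.12 and −1.65 ± 0.16, difference 3.37 ± 0.20). Slco4c1, an organic anion transporter, averaged 13.1 ± 0.860 CPM with BMP4 and 2.35 ± 0.573 CPM at 0 h, and under 1 CPM in the Sox17-FKBP line. Its call with Sox17 loss (adjusted p = 0.047) was lost with the replicate block (0.054) and without any of 7 libraries (0.051 to 0.22). Its BMP4 call was lost with the covariate (adjusted p = 0.56).

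The other motifs searched, on both strands, were AGATAA for GATA factors, TGTTTAC for forkhead factors, CAAAGTCCA for HNF4 and GGCGCC for SMAD1/5. No share of a class is read as a site or a cause. GATA letters were held by 6.33% of promoters of genes up in both and 5.90% of those down in both, against 5.75% of all tested genes. The shares were 4.95% for genes up with BMP4 and down with Sox17 loss, and 4.12% for the reverse class. Forkhead letters were held by 1.48 to 3.02% of promoters in the 4 classes, against 2.08% of all tested genes. SMAD1/5 letters, which are rich in G and C, were held by 15.8% of promoters up in both, 20.9% of those up with BMP4 and down with Sox17 loss, and 17.0% of all tested genes. HNF4 letters were held by 0.437 to 0.549% of promoters in the 4 classes, against 0.298% of all tested genes. The classes held 364 to 949 promoters, so each of these shares rests on a handful of promoters and the classes are not ranked.

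In the reverse class, down with BMP4 and up with Sox17 loss, the leading genes were Krt13, Adamts8, Kcnk12, Tril, Esam and Tpbgl. The promoters of Krt13 (chr11:100121567-100121816) and Kcnk12 (chr17:87797995-87798244), both on the minus strand, are printed as the opposite case to Flt1 and Rfx6, and hold none of the 6 motifs.
Krt13: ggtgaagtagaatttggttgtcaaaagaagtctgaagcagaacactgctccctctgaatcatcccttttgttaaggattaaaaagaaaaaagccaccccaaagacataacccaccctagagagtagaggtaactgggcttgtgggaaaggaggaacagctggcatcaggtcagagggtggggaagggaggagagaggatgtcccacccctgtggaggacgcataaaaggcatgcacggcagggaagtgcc
Kcnk12: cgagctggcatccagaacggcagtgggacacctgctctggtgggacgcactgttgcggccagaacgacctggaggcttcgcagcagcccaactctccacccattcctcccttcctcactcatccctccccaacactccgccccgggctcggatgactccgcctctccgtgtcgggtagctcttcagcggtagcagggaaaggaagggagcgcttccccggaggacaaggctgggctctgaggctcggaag
Krt13, a keratin of stratified epithelium, had 8.02 and 8.58 CPM after 72 h of Sox17 loss, against 1.05 and 0.741 CPM at 0 h, a rise of 3.23 ± 0.33 (adjusted p = 2.1e-08). In the BMP4 series it had no read with BMP4, against 12 reads at 0 h, at least 4.38-fold lower, a call lost without replicate 2 of 0 h (adjusted p = 0.072) and with the covariate (0.17). Tril, a partner of Toll-like receptors, had 4.01 and 3.24 CPM with BMP4 at 72 h, against 14.3 and 13.8 CPM in N2B27 at 0 h. Sox17 loss gave 7.48 and 7.75 CPM, against 1.40 and 1.27 CPM at 0 h. The changes of Tril were −1.96 ± 0.15 and 2.52 ± 0.16 (difference −4.47 ± 0.22, adjusted p = 4.8e-15). The junction gene Esam, known from endothelium, had 6.10 and 6.15 CPM with BMP4 at 72 h, against 29.1 and 30.2 CPM in N2B27 at 0 h. Sox17 loss gave 11.3 and 13.8 CPM, against 2.94 and 3.75 CPM at 0 h. Esam moved as Tril did (−2.27 ± 0.13 and 1.88 ± 0.13, difference −4.16 ± 0.18, adjusted p = 7.4e-16). Tpbgl, a leucine-rich repeat gene, averaged 9.89 ± 0.241 CPM with BMP4 and 27.6 ± 1.77 CPM at 0 h. Sox17 loss gave 50.5 ± 2.20 CPM, against 14.7 ± 1.40 CPM at 0 h. The protease gene Adamts8 averaged 0.213 ± 0.230 CPM with BMP4 and 1.25 ± 0.178 CPM at 0 h. Sox17 loss gave 5.11 ± 0.727 CPM, against 0.934 ± 0.0315 CPM at 0 h. Kcnk12, a tandem-pore potassium channel gene, averaged 4.23 ± 0.270 CPM with BMP4 and 23.4 ± 1.82 CPM at 0 h. Sox17 loss gave 0.442 ± 0.0201 CPM, against 0.100 ± 0.00676 CPM at 0 h. The BMP4 falls of Tpbgl and Adamts8 were lost with the covariate (adjusted p = 0.11 and 0.28), where the difference stayed called for both (4.3e-07 and 0.003).

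Besides Rfx6 and Flt1, the largest positive differences were those of Apob, Cldn2, Mid1ip1 and Id3. Cldn2, a pore-forming claudin of leaky epithelia, had 14.99 and 12.6 CPM with BMP4 at 72 h, against 0 and 0.0512 CPM in N2B27 at 0 h, and 1 read after Sox17 loss, against 2 reads at 0 h. Its difference (adjusted p = 0.0025) was lost without replicate 1 of that line's 0 h group (1). Mid1ip1, a regulator of fatty acid synthesis, averaged 7.01 ± 0.287 CPM with BMP4 and 0.436 ± 0.108 CPM at 0 h, and had no read after Sox17 loss, against 3 reads at 0 h. The largest negative ones were those of Krt13, Slc24a3, Acta2, Bok, Ramp1 and Actc1. Acta2, smooth muscle actin, had 0.254 and 0.235 CPM with BMP4 at 72 h, against 9.35 and 9.88 CPM in N2B27 at 0 h. Sox17 loss gave 510.0 and 515 CPM, against 501 and 514 CPM at 0 h. With BMP4 it fell by 5.27 ± 0.27 on the log2 scale and was not called with Sox17 loss (0.01 ± 0.10, adjusted p = 0.95), a difference of −5.29 ± 0.30 (adjusted p = 8.3e-14). Bok, a BCL2 family gene, averaged 0.0743 ± 0.0386 CPM with BMP4 and 2.85 ± 0.121 CPM at 0 h. Sox17 loss gave 18.8 ± 2.01 CPM, against 18.05 ± 1.92 CPM at 0 h. Slc24a3, a sodium and calcium exchanger, had no read with BMP4, at least 5.32-fold lower than at 0 h, and rose with Sox17 loss by 1.15 ± 0.15. Cardiac actin Actc1 likewise had none with BMP4, at least 3.39-fold lower, and averaged 6.78 ± 0.318 CPM with Sox17 loss and 10.5 ± 0.492 CPM at 0 h. Its BMP4 call was lost with the covariate (adjusted p = 0.09), and its fall with Sox17 loss without either of 2 libraries (0.075 and 0.084). The difference of Actc1 was lost with the covariate (0.19) and without replicate 1 or 2 of BMP4 at 72 h (0.062 and 0.071). Ramp1, a receptor partner of calcitonin-family peptides, averaged 19.9 ± 0.199 CPM with Sox17 loss and 2.36 ± 0.0124 CPM at 0 h (3.07 ± 0.20), with 1 read with BMP4, against 4 at 0 h. Its difference was lost without replicate 2 of N2B27 at 0 h (0.15) and with the covariate (0.22).

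The Id genes Id1, Id2 and Id3, which BMP signalling induces directly, rose further with BMP4. Id1, an inhibitor of helix-loop-helix factors and a direct SMAD1/5 target, had 164 and 168 CPM with BMP4 at 72 h, against 14.3 and 13.98 CPM in N2B27 at 0 h. Sox17 loss gave 10.5 and 9.20 CPM, against 10.3 and 10.1 CPM at 0 h. It rose with BMP4 in both libraries (3.56 ± 0.14, adjusted p = 1.1e-17) and was not called with Sox17 loss (−0.04 ± 0.14, adjusted p = 0.86), and the difference was 3.60 ± 0.19 (adjusted p = 3.1e-14). The relatives Id2 and Id3 rose in both. Id2 had 87.2 and 91.9 CPM with BMP4 at 72 h, against 6.83 and 6.04 CPM in N2B27 at 0 h. Sox17 loss gave 16.1 and 19.3 CPM, against 5.57 and 5.47 CPM at 0 h (3.80 ± 0.15 and 1.68 ± 0.14). Id3 had 80.2 and 81.4 CPM with BMP4 at 72 h, against 0.539 and 0.410 CPM in N2B27 at 0 h. Sox17 loss gave 16.7 and 16.6 CPM, against 8.27 and 9.30 CPM at 0 h. Id3 rose by 7.41 ± 0.27 and 0.92 ± 0.17, and both differences were called (2.12 ± 0.21 and 6.49 ± 0.34, adjusted p = 4.5e-09 and 2.8e-14). Of 17 tested genes of the BMP list, 6 rose and 5 fell with BMP4 and 6 rose and 2 fell with Sox17 loss, with 2 up in both. The difference was positive for 7 and negative for 5. With BMP4 the list as a whole was near the 31.6% of all tested genes that rose and 31.2% that fell. The shares with Sox17 loss were 21.2% and 15%.

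In both responses more epithelial genes rose than fell. Of 25 tested genes of epithelial junctions and polarity, 17 rose and 4 fell with BMP4, 14 rose and 2 fell with Sox17 loss, and 9 rose in both. Of all tested genes 31.6% rose and 31.2% fell with BMP4, and 21.2% rose and 15% fell with Sox17 loss. E-cadherin, Cdh1, had 128 and 125 CPM with BMP4 at 72 h, against 25.2 and 27.4 CPM in N2B27 at 0 h. Sox17 loss gave 47.3 and 48.5 CPM, against 11.99 and 10.4 CPM at 0 h. All treated libraries lay above all controls, and the changes, 2.26 ± 0.10 and 2.10 ± 0.10, were not called different (0.16 ± 0.13, 95% interval −0.10 to 0.42), though they were on only the 8 libraries (adjusted p = 0.042). Cgn, a tight junction plaque protein, averaged 57.4 ± 0.579 CPM with BMP4 and 8.04 ± 1.09 CPM at 0 h. Sox17 loss gave 38.98 ± 1.37 CPM, against 17.8 ± 1.05 CPM at 0 h. Cgn rose more with BMP4 (2.84 ± 0.12 against 1.14 ± 0.10, adjusted p of the difference = 1.6e-09). Villin, Vil1, a microvillus protein, rose too (3.37 ± 0.36 and 1.54 ± 0.36) from under 1 CPM in both controls. Cldn6, a claudin of embryonic epithelia, had 219 and 228 CPM with BMP4 at 72 h, against 109 and 116 CPM in N2B27 at 0 h. Sox17 loss gave 14.4 and 14.9 CPM, against 43.8 and 47.2 CPM at 0 h. It rose with BMP4 (0.99 ± 0.10) and fell with Sox17 loss (−1.64 ± 0.11), a difference of 2.62 ± 0.14 (adjusted p = 5.2e-14).

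Of 18 genes of mesenchymal transition, 3 rose and 8 fell with BMP4, and 5 rose and 2 fell with Sox17 loss. Beside these counts, 31.6% of all tested genes rose and 31.2% fell with BMP4, and 21.2% rose and 15% fell with Sox17 loss. Tagln, a smooth muscle and mesenchymal actin-binding protein, had 2.84 and 3.33 CPM with BMP4 at 72 h, against 67.01 and 68.4 CPM in N2B27 at 0 h. Sox17 loss gave 178 and 186 CPM, against 272 and 286 CPM at 0 h. Tagln fell in both, by 4.45 ± 0.15 and 0.62 ± 0.11, and more with BMP4 (difference −3.83 ± 0.19, adjusted p = 8e-15). Fibronectin, Fn1, went the other way, with 128 and 119 CPM with BMP4 at 72 h, against 16.7 and 14.9 CPM in N2B27 at 0 h. Sox17 loss gave 99.9 and 99.3 CPM, against 17.2 and 15.3 CPM at 0 h. Its rises of 2.97 ± 0.16 and 2.62 ± 0.15 were not called different (0.35 ± 0.21, adjusted p = 0.17), though they were on only the 8 libraries (0.00026). Most fibroblast markers were not called in either response, but 13 of the 18 listed stayed under 1 CPM in all 8 libraries, where a change could hardly be called. Their part was not tested. Of 18 listed 14 were tested, of which 1 rose and 2 fell with BMP4, and 3 rose and 1 fell with Sox17 loss. Not called were 11 with BMP4 and 10 with Sox17 loss. The list summed to 23.6 to 26.7 CPM with BMP4, against 46.1 to 47.8 CPM at 0 h, and to 562 to 575 CPM with Sox17 loss, against 590.4 to 607 CPM at 0 h. Col3a1, Lum, Thy1, Postn and Fap were at 0 in all 8 libraries. Most of the Sox17-FKBP sums was Fbn1, a matrix fibrillin gene, at 555 CPM with Sox17 loss, against 583 CPM at 0 h (−0.07 ± 0.13, adjusted p = 0.73, or 0.0016 on only the 8 libraries).

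Parietal endoderm genes fell with BMP4 in larger number than with Sox17 loss. Of 23 tested, 4 rose and 17 fell with BMP4, while 9 rose and 3 fell with Sox17 loss. Shares of all tested genes were 31.6% up and 31.2% down with BMP4, and 21.2% up and 15% down with Sox17 loss. The difference was negative for 19 and positive for 2 (29.7% and 23.4% of all), with a median of −0.89, against −0.09 over all tested genes. Vim, vimentin, had 98.7 and 97.5 CPM with BMP4 at 72 h, against 538 and 545 CPM in N2B27 at 0 h. Sox17 loss gave 1530.0 and 1546 CPM, against 1739 and 1828 CPM at 0 h. Vim fell by 2.47 ± 0.08 with BMP4 and by 0.21 ± 0.07 with Sox17 loss, where the call was lost without any of 3 libraries (adjusted p = 0.08 to 0.16), and the difference was −2.25 ± 0.11 (adjusted p = 3.4e-15). Thrombomodulin, Thbd, had 153 and 163 CPM with BMP4 at 72 h, against 578 and 576 CPM in N2B27 at 0 h. Sox17 loss gave 468 and 481 CPM, against 417 and 414 CPM at 0 h. It fell by 1.87 ± 0.06 with BMP4 and rose by 0.19 ± 0.06 with Sox17 loss (difference −2.06 ± 0.09, adjusted p = 3.7e-16), and that rise was lost without any of 3 libraries (0.056 to 0.09). Nid1, a linker protein of basement membrane, had 654 and 674 CPM with BMP4 at 72 h, against 1208 and 1223 CPM in N2B27 at 0 h. Sox17 loss gave 3887 and 4033 CPM, against 1764 and 1639 CPM at 0 h. Nid1 fell with BMP4 and rose with Sox17 loss (−0.87 ± 0.12 and 1.22 ± 0.12, difference −2.09 ± 0.17, adjusted p = 2.4e-10). Fst, which binds activin, was 1 of 2 that rose in both, with 806 and 892 CPM with BMP4 at 72 h, against 248 and 238 CPM in N2B27 at 0 h. Sox17 loss gave 169 and 179 CPM, against 15.98 and 13.2 CPM at 0 h. Its rise with Sox17 loss (3.58 ± 0.11) exceeded that with BMP4 (1.80 ± 0.10; difference −1.78 ± 0.14, adjusted p = 4.8e-11). With the covariate 4 rose and 16 fell with BMP4, and the difference was negative for 15.

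Genes of primitive endoderm and XEN identity, 17 tested, showed 1 rise and 11 falls with BMP4 and 5 rises and 7 falls with Sox17 loss, 4 of them down in both. Across all tested genes 31.6% rose and 31.2% fell with BMP4, and 21.2% rose and 15% fell with Sox17 loss. Foxq1, a forkhead gene, fell in both (−0.59 ± 0.08 and −0.73 ± 0.08, difference 0.13 ± 0.12, adjusted p = 0.36, or 0.0024 on only the 8 libraries). Sox7, the closest relative of Sox17 in this tissue, had 55.7 and 60.7 CPM with BMP4 at 72 h, against 133 and 124 CPM in N2B27 at 0 h. Sox17 loss gave 226 and 246 CPM, against 185 and 163 CPM at 0 h. It fell with BMP4 (−1.15 ± 0.11) and rose with Sox17 loss (0.44 ± 0.10), a difference of −1.59 ± 0.15 (adjusted p = 1.8e-09). The water channel gene Aqp8 had 78.7 and 74.9 CPM with BMP4 at 72 h, against 85.6 and 84.2 CPM in N2B27 at 0 h. Sox17 loss gave 104 and 112 CPM, against 13.9 and 14.8 CPM at 0 h. It was not called with BMP4 (−0.14 ± 0.13, adjusted p = 0.34) and rose with Sox17 loss (2.91 ± 0.14), a difference of −3.06 ± 0.19 (adjusted p = 4.8e-13). With the covariate Aqp8 was called higher with BMP4 (0.75, adjusted p = 0.0024), and in the fit on only the 8 libraries lower (−0.12, adjusted p = 0.026).

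**Figure D4:**
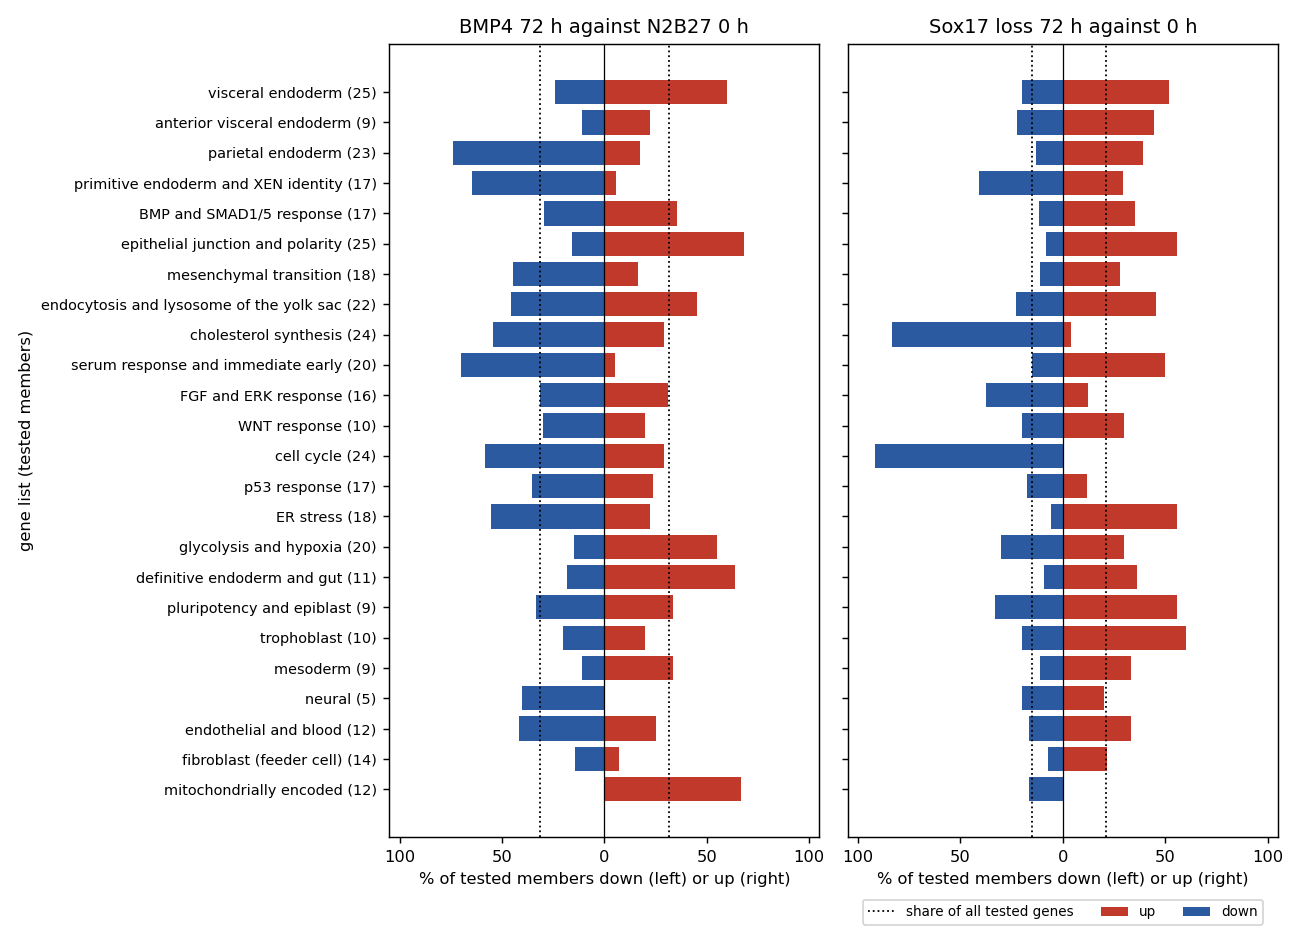
Share of the tested members of each of 24 gene lists that rose (right) or fell (left), with BMP4 in the left panel and with Sox17 loss in the right panel. Dotted lines give the share of all tested genes (31.6% up and 31.2% down with BMP4, 21.2% up and 15% down with Sox17 loss), and numbers in brackets count tested members.

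The gastrokine genes Gkn2 and Gkn1 rose in both responses, and further with Sox17 loss. Gkn2, a secreted gastrokine of stomach lining, had 112 and 108 CPM with BMP4 at 72 h, against 61.9 and 65.2 CPM in N2B27 at 0 h. Sox17 loss gave 3617 and 3457 CPM, against 466 and 472 CPM at 0 h. Its neighbour in function, Gkn1, averaged 38.4 ± 1.55 CPM with BMP4 and 15.8 ± 0.0765 CPM at 0 h. Sox17 loss gave 1204 ± 33.2 CPM, against 129 ± 2.49 CPM at 0 h. Gkn2 rose by 0.79 ± 0.11 and 2.91 ± 0.11 (difference −2.13 ± 0.15, adjusted p = 1.5e-10) and Gkn1 by 1.28 ± 0.13 and 3.22 ± 0.12 (difference −1.94 ± 0.18, adjusted p = 7e-09). Of 11 tested genes of definitive endoderm and gut, 7 rose and 2 fell with BMP4 and 4 rose and 1 fell with Sox17 loss, with Sox2, Nkx2-1, Cdx1 and Cdh17 at 0. Over all tested genes the shares were 31.6% up and 31.2% down with BMP4, and 21.2% up and 15% down with Sox17 loss. Pluripotency genes were mostly unread, with 9 of 16 tested (3 up and 3 down with BMP4, 5 up and 3 down with Sox17 loss). Lin28a, an RNA-binding protein of early embryonic cells, fell in both and more with Sox17 loss, averaging 405 ± 0.946 CPM with BMP4 and 557 ± 3.21 CPM at 0 h. Sox17 loss gave 85.3 ± 2.60 CPM, against 271 ± 3.25 CPM at 0 h (difference 1.21 ± 0.09, adjusted p = 2.2e-11). Tfcp2l1, a factor shared by naive pluripotent cells and kidney epithelium, averaged 59.2 ± 2.16 CPM with BMP4 and 28.4 ± 0.382 CPM at 0 h. Sox17 loss gave 8.58 ± 0.114 CPM, against 17.9 ± 0.668 CPM at 0 h (1.06 ± 0.14 and −1.06 ± 0.15), where the BMP4 rise was lost with the covariate (adjusted p = 0.52), and Klf2 took the reverse course (−1.55 ± 0.15 and 0.90 ± 0.15, difference −2.45 ± 0.21).

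Markers of tissues outside the endoderm were counted as well, and their part in other results was not tested. They stand beside 31.6% up and 31.2% down of all tested genes with BMP4. With Sox17 loss these shares were 21.2% and 15%. Of 10 tested trophoblast genes, 2 rose and 2 fell with BMP4 and 6 rose and 2 fell with Sox17 loss. Tead4, a partner of YAP, fell in both (−1.05 ± 0.07 and −0.34 ± 0.07) and Plet1 rose in both, from under 1 CPM (3.04 ± 0.50 and 2.53 ± 0.29). Of 9 mesoderm genes 3 rose and 1 fell in each response, and the T-box gene Tbx3 averaged 79.2 ± 0.829 CPM with BMP4 and 45.9 ± 2.09 CPM at 0 h. Sox17 loss gave 19.8 ± 0.405 CPM, against 51.7 ± 1.39 CPM at 0 h, opposite changes of 0.79 ± 0.08 and −1.39 ± 0.08 (difference 2.17 ± 0.12, adjusted p = 4.2e-14). Of 12 endothelial and blood genes 3 rose and 5 fell with BMP4 and 4 rose and 2 fell with Sox17 loss, Flt1 and Esam among them in opposite directions, while Sox18, Emcn and Cldn5 were at 0. Of 5 neural genes none rose and 2 fell with BMP4 and 1 rose and 1 fell with Sox17 loss. Tubb3, a neuronal tubulin, fell in both (−1.61 ± 0.15 and −0.59 ± 0.17), with Sox17 loss not without replicate 1 of 72 h (adjusted p = 0.099).

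Cholesterol synthesis genes fell in larger number with Sox17 loss than with BMP4. Of 24 tested, 7 rose and 13 fell with BMP4, and 1 rose and 20 fell with Sox17 loss, with 12 down in both. The difference was positive for 12 and negative for 5 (23.4% and 29.7% of all tested genes). For this list and the next, the shares of all tested genes were 31.6% up and 31.2% down with BMP4. They were 21.2% up and 15% down with Sox17 loss. Hmgcs1, which makes HMG-CoA, had 521 and 528 CPM with BMP4 at 72 h, against 236 and 222 CPM in N2B27 at 0 h. Sox17 loss gave 98.01 and 92.3 CPM, against 155 and 155 CPM at 0 h. It rose with BMP4 and fell with Sox17 loss (1.19 ± 0.12 and −0.71 ± 0.12, difference 1.90 ± 0.17, adjusted p = 6.2e-10). Insig1, a sterol sensor and feedback regulator, rose in both (1.74 ± 0.10 and 0.51 ± 0.10). With the covariate 2 of the list rose and 3 fell with BMP4, and the rise of Hmgcs1 was lost (adjusted p = 0.098). Of 20 glycolysis and hypoxia genes, 11 rose and 3 fell with BMP4 and 6 rose and 6 fell with Sox17 loss. Bnip3, a mitophagy receptor induced by low oxygen, averaged 153 ± 15.95 CPM with BMP4 and 16.5 ± 2.06 CPM at 0 h. Sox17 loss gave 59.2 ± 1.39 CPM, against 23.3 ± 0.598 CPM at 0 h (3.22 ± 0.15 and 1.34 ± 0.14). Slc2a1, the basal glucose transporter, rose with BMP4 (0.76 ± 0.09) and fell with Sox17 loss (−0.37 ± 0.09), and Egln3, an oxygen sensor, rose more with Sox17 loss (1.98 ± 0.17 against 3.44 ± 0.18, adjusted p of the difference = 2.2e-05).

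Of 22 endocytosis and lysosome genes, 10 rose and 10 fell with BMP4, and 10 rose and 5 fell with Sox17 loss, while with the covariate 7 rose and 4 fell with BMP4. Among all tested genes 31.6% rose and 31.2% fell with BMP4, and 21.2% rose and 15% fell with Sox17 loss. The neonatal Fc receptor gene Fcgrt, which carries antibody across the yolk sac, averaged 8.88 ± 0.195 CPM with BMP4 and 0.718 ± 0.00155 CPM at 0 h. Sox17 loss gave 1.77 ± 0.163 CPM, against 0.958 ± 0.166 CPM at 0 h. Fcgrt rose in both (3.62 ± 0.32 and 0.87 ± 0.31), and the call with Sox17 loss was lost without any 1 of its 4 libraries (adjusted p = 0.058 to 0.17). Ctsb, lysosomal cathepsin B, fell with BMP4 (−0.47 ± 0.06) and rose with Sox17 loss (0.56 ± 0.06). Its BMP4 fall was not called with the covariate (adjusted p = 0.76), and its difference was (1e-04).

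Cell cycle genes fell with Sox17 loss and divided with BMP4. Of 24 tested, 7 rose and 14 fell with BMP4 and none rose and 22 fell with Sox17 loss, with 13 down in both. Of all tested genes 31.6% rose and 31.2% fell with BMP4, and 21.2% rose and 15% fell with Sox17 loss, so the share that rose with BMP4 was near that of all genes. Mcm4, of the replicative helicase, averaged 313 ± 2.26 CPM with BMP4 and 248 ± 2.25 CPM at 0 h. Sox17 loss gave 199 ± 7.09 CPM, against 283 ± 1.41 CPM at 0 h. The BMP4 rises of Mcm4 and of the centromere genes Cenpe and Cenpf turned negative with the covariate, where no cell cycle gene rose and 5 fell with BMP4. Of 20 genes of the serum and immediate early response, 1 rose and 14 fell with BMP4 and 10 rose and 3 fell with Sox17 loss. The BMP4 group had no serum, and with the covariate none rose and 8 fell. Ccn2, a matricellular target of YAP and serum, had 61.97 and 62.1 CPM with BMP4 at 72 h, against 436 and 444 CPM in N2B27 at 0 h. Sox17 loss gave 1653 and 1738 CPM, against 1284 and 1362 CPM at 0 h. It fell with BMP4 and rose with Sox17 loss (−2.83 ± 0.08 and 0.36 ± 0.07, difference −3.18 ± 0.10, adjusted p = 4.6e-19). Its relative Ccn1 averaged 66.7 ± 2.98 CPM with BMP4 and 383 ± 2.14 CPM at 0 h. Sox17 loss gave 729 ± 1.68 CPM, against 524 ± 21.98 CPM at 0 h. Egr1 was the 1 that rose in both (0.87 ± 0.27 and 1.74 ± 0.28), with BMP4 not with the covariate (adjusted p = 0.14). Of 18 ER stress genes, 4 rose and 10 fell with BMP4 and 10 rose and 1 fell with Sox17 loss, and the difference was negative for 13 and positive for none. Pdia6, a disulfide isomerase, averaged 487 ± 6.54 CPM with BMP4 and 788 ± 15.96 CPM at 0 h. Sox17 loss gave 1062 ± 11.1 CPM, against 831 ± 9.05 CPM at 0 h (−0.70 ± 0.06 and 0.35 ± 0.06), and Hyou1, a chaperone, fell with BMP4 (−1.06 ± 0.06) and was not called with Sox17 loss (0.04 ± 0.06, adjusted p = 0.61).

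Of 16 FGF and ERK response genes, 5 rose and 5 fell with BMP4 and 2 rose and 6 fell with Sox17 loss, while with the covariate 2 rose and 1 fell with BMP4. For this and the lists that follow, 31.6% of all tested genes rose and 31.2% fell with BMP4. The shares with Sox17 loss were 21.2% and 15%. Etv5, an ETS factor induced by FGF, averaged 47.5 ± 0.541 CPM with BMP4 and 10.3 ± 1.05 CPM at 0 h. Sox17 loss gave 3.87 ± 0.0341 CPM, against 7.12 ± 0.706 CPM at 0 h (2.20 ± 0.10 and −0.89 ± 0.12, difference 3.09 ± 0.15, adjusted p = 8e-15). Spry2, a feedback inhibitor of the pathway, fell with BMP4 (−2.01 ± 0.08) and was not called with Sox17 loss (−0.14 ± 0.07, adjusted p = 0.11, or 0.0014 on only the 8 libraries). Of 17 p53 response genes, 4 rose and 6 fell with BMP4 and 2 rose and 3 fell with Sox17 loss, and Gtse1 and Aen fell in both. With the covariate the BMP4 fall of Gtse1 was lost (adjusted p = 0.1) and its difference turned positive (0.41, adjusted p = 0.041). Of 10 WNT response genes, 2 rose and 3 fell with BMP4 and 3 rose and 2 fell with Sox17 loss, with Apcdd1, a WNT inhibitor, falling with BMP4 (−1.65 ± 0.30) and rising with Sox17 loss (2.05 ± 0.34). The BMP4 fall of Apcdd1 was lost with the covariate (adjusted p = 0.1). Of 12 mitochondrially encoded genes, 8 rose and none fell with BMP4, and none rose and 2 fell with Sox17 loss. None was called with BMP4 with the covariate.

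The courses that led to 72 h differed between genes, and their other times are given as levels without a test. Id1 stood at 14.1, 335 and 166 CPM at 0, 24 and 72 h in the BMP4 series, highest at 24 h. Afp stood at 1.86, 4.30 and 54.4 CPM and Apoa1 at 2.92, 10.5 and 64.9 CPM, highest at 72 h. Flt1 had the same mean at both earlier times with BMP4 (16.9 and 16.9 CPM at 0 and 24 h) and was higher at 72 h. In the Sox17-FKBP line Flt1 stood at 14.7, 9.28, 6.35, 2.52, 1.99 and 3.63 CPM at 0, 6, 24, 48, 72 and 96 h, and Apoa1 at 2.36, 2.95, 9.28, 29.9, 32.8 and 51.04 CPM. Rbp4 was highest at 96 h, at 6.75, 9.11, 12.9, 12.5, 35.4 and 83.7 CPM, and so was Fn1, at 16.2, 15.98, 22.6, 30.4, 99.6 and 288 CPM. Lrp2, which was not called at 72 h of Sox17 loss, was lowest at 48 h and highest at 96 h (107, 108, 138, 55.6, 100.1 and 306 CPM), and Ihh was highest at 48 h (4.62, 5.22, 2.39, 8.86, 3.02 and 3.11 CPM).

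**Figure D5:**
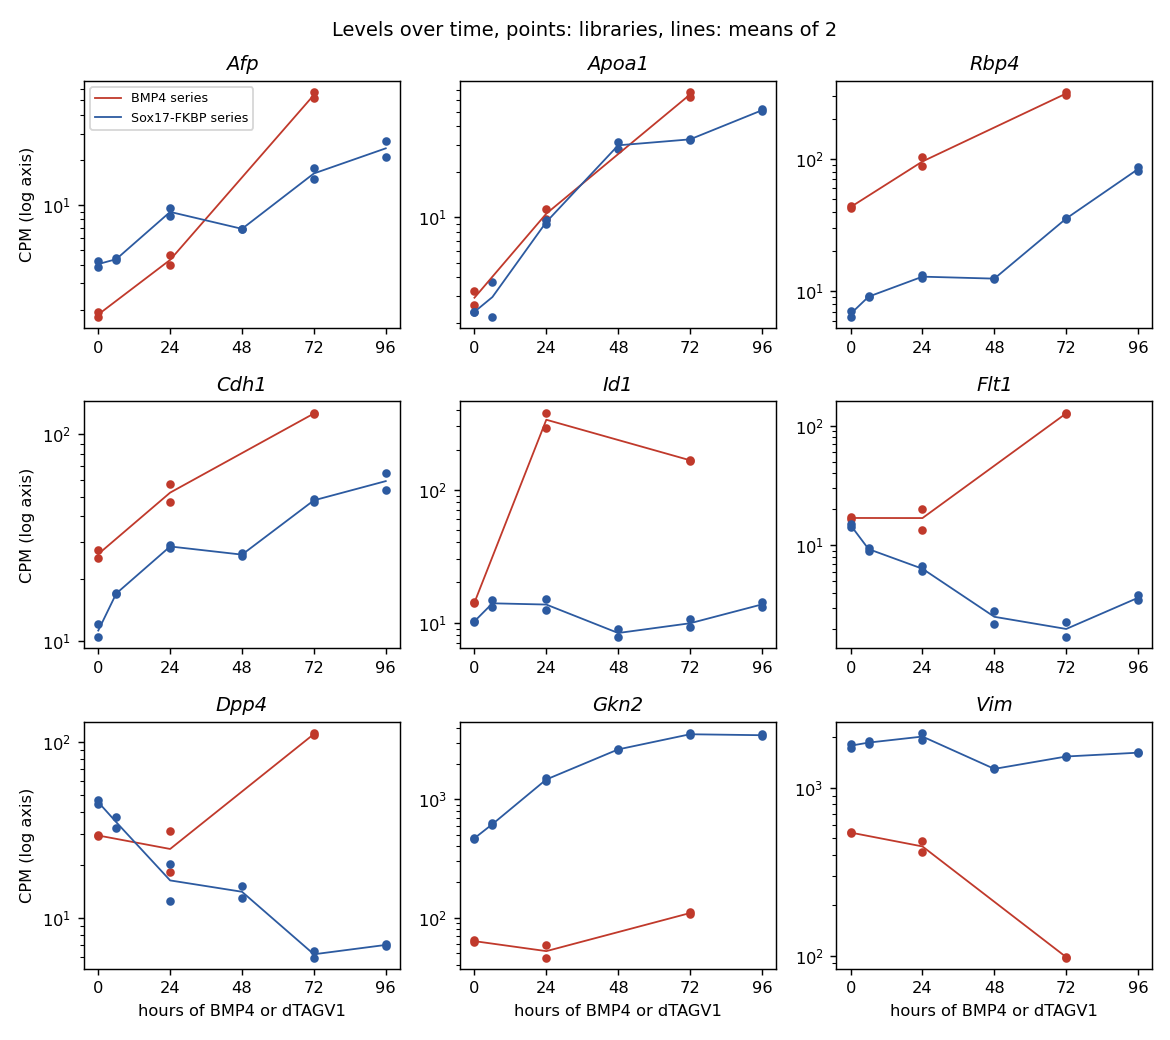
CPM (log axis) of 9 genes over hours of BMP4 (0, 24 and 72 h) or of dTAGV1 in the Sox17-FKBP line (0, 6, 24, 48, 72 and 96 h), points for libraries and lines for means of 2. Afp, Apoa1, Rbp4 and Cdh1 end above their start in both series, Id1 moves in the BMP4 series, Flt1 and Dpp4 part in opposite directions by 72 h, and Gkn2 is highest in the Sox17-FKBP series.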

How the data were processed

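RNA-seq read counts per gene were analysed. The authors deposited whole-number counts of reads per gene for each library, and per the submitters' processing notes they used HISAT2 and HTSeq on mm10; versions, strand setting and annotation release are not given in the sources used here, so reads of overlapping or antisense genes cannot be told apart. The files held 47729 gene IDs, 47224 of which had a symbol in the reference tables. Reads that HTSeq assigned to no gene stayed out of library sizes, and were 3.40 to 8.39% of all reads. The counts of all 40 RNA libraries (16.2 to 42.5 M gene reads, 20 groups) were fitted together with edgeR 4.0.16 (R 4.3.3). TMM scaling was used, and edgeR's default expression filter left 14625 genes, with 20 residual degrees of freedom. The common coefficient of variation between libraries of a group was 8.22%, which edgeR terms biological, though that spread may be technical. Quasi-likelihood tests, two-sided with Benjamini-Hochberg adjustment over all tested genes, gave the BMP4 change, the Sox17-loss change and their difference. SE is the absolute change divided by the root of the F value, and 95% intervals are 1.96 SE wide on each side. On simulated counts for 13635 genes, changes of 1 log2 unit were recovered in 88.7% of genes for BMP4, 88.0% for Sox17 loss and 83.0% for the difference. Only 200 genes, each with a mean over 1 CPM, were changed there, and no shift of outside reads or gene span was simulated. The recovered shares therefore do not bear on those properties of the BMP4 libraries, or on scaling where most genes change.

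Members, gene lists and alternatives were chosen with earlier results of these data known. The text names the 4 factors and the members of the visceral endoderm list. Of genes whose mean reached 5 CPM in 1 of 4 groups and whose groups do not overlap, it names the 6 with the largest smaller change in each overlap class and the 6 most positive and 6 most negative differences. From every other list it names the 2 with the smallest adjusted p in the difference and the 2 called in both with the largest smaller change. Some genes that these rules name are not reported here. Genes given as being at 0 were named after their values were seen. Promoters came from RefSeq GRCm38.p6. Alternatives were DESeq2 1.42.0, other scaling and filters, only the 8 libraries, reads outside genes as a covariate, other times of Sox17 loss, a replicate block, each library left out and, added after seeing the data, removal of a gene span trend. Floors and intervals cover counting error only where they come from reads.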

Additional observations from a re-analysis of the deposited data

Results flagged for a closer look

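Reads outside annotated genes, which no comparison of gene levels uses, stood above the level of the control libraries with BMP4 at 72 h. They numbered 10.45 and 10.32 per 100 gene reads in replicates 1 and 2 with BMP4 at 72 h, against 5.64 and 5.69 in N2B27 at 0 h. With BMP4 at 24 h they numbered 5.32 and 4.51. Their part in the BMP4 changes was not tested. With the covariate, whose slope came only from differences between libraries of a group, 22.0% of the BMP4 calls were kept in the same direction.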

How the results depend on the processing

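Median-of-ratios scaling, DESeq2 and the lack of a low-count filter left every count of genes up, down or overlapping within 1.5 times its value, and the replicate block did too (4604 up and 4571 down with BMP4, 3104 and 2215 with Sox17 loss, 3426 and 4358 differences, overlaps of 1166, 1212, 505 and 829). No pairing by replicate number was seen: deviations of same-numbered libraries correlated at −0.006 in the BMP4 comparison and 0.077 in the Sox17-loss comparison. Such values cannot show that the libraries were not made in pairs. In the fit on only the 8 libraries 4074 genes fell with Sox17 loss, 2058 were down in both, 1476 were up with BMP4 and down with Sox17 loss, and 1258 were the reverse. With reads outside genes as a covariate, 1226 genes rose and 1396 fell with BMP4, the difference was positive for 864 and negative for 1275, and 715 were up in both, 608 down in both, 94 up with BMP4 and down with Sox17 loss, and 292 the reverse. Leaving out each library in turn gave 3975 to 4615 up and 4117 to 4553 down with BMP4, 2383 to 3124 up and 1536 to 2113 down with Sox17 loss, 3027 to 3143 positive and 3890 to 4078 negative differences, 916 to 1041 up in both, 883 to 1103 down in both, 586 to 742 down with BMP4 and up with Sox17 loss, and 287 to 385 up with BMP4 and down with Sox17 loss. The last was 296 and 314 without replicate 1 and 2 of Sox17FKBP_0h, and 300 and 287 without replicate 1 and 2 of Sox17FKBP_72h, against 483. With the gene span trend removed, 3888 genes rose and 4749 fell with BMP4.

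Single values that changed sign are log2 changes, and the cause was not tested. Against Sox17 loss at 48 h, the difference was −0.85 for Vldlr, 0.033 for Mfsd2a, −0.96 for Ihh, −0.29 for Mttp, 0.19 for Atf3, −2.21 for Adm and 0.14 for Ets2, and the Sox17-loss change was −0.95 for Acta2, −1.12 for Bok, 0.93 for Ihh, −0.31 for Ccn2 and Ccn1, −0.36 for Phlda3 and 0.015 for Slc2a1. Against 96 h, the Sox17-loss change was 2.95 for Cldn2, 0.11 for Actc1, 1.52 for Lrp2, 0.42 for Id1, 0.62 for Tagln, 0.79 for Actg2 and 0.36 for Tubb3, and the difference was −0.79 for Rbp4 and −1.18 for Fn1. With the span trend removed, the BMP4 change was 0.17 for Foxa2 and 0.24 for Ihh, both called (adjusted p = 0.0054 and 0.025). The difference for Foxa2 was 0.078 and not called (0.39). With the covariate, the BMP4 change was 0.27 for Foxa2, 0.0011 for Gata4, 0.19 for Spink1, 0.30 for Cited1, 0.75 for Aqp8, −0.13 for Znrf3, −0.088 for Mcm4, −0.080 for Cenpe and −0.16 for Cenpf. The difference with the covariate was −0.97 for Vldlr, 0.18 for Foxa2, 0.73 for Slc39a4, 0.81 for Mvd, 0.41 for Gtse1 and −0.00071 for Tbx20. Of 381 changes and differences of named genes, 379 kept their direction and side of the threshold with DESeq2, 381 with median-of-ratios scaling, 368 without a filter, 359 on only the 8 libraries, 378 with the replicate block and 307 with the covariate.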
